A study of Homo sapiens with 2 samples.

Results

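The genes that build the mitochondrial ribosome and run translation inside mitochondria were compared between 2 stable derivatives of PC3, an established human prostate cancer cell line grown here in serum-containing medium. One derivative overexpressed a control microRNA (labelled miR control) and the other overexpressed miR-95, so every group shares the PC3 background and stable expression of a microRNA. Each group was measured once, by hybridising biotin-labelled total RNA to an Affymetrix gene array. The labels do not say whether each derivative is a clone or a pool. Members were chosen by gene symbol alone: names of mitochondrial ribosomal proteins (MRPL and MRPS), mitochondrial initiation and release factors, the MTERF family, MTO1 and the mitochondrial RNA polymerase POLRMT, among others. The rule found 88 genes of the 13864 with a name on the arrays, each read by 1 probe set. Of these, 84 code for proteins, 2 are antisense RNAs and 2 are pseudogenes.

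Mitochondria keep their own ribosome, which translates the few messenger RNAs of mitochondrial DNA, all of them for membrane subunits of the respiratory chain and ATP synthase. Its RNAs come from mitochondrial DNA, whereas all of its proteins are encoded in the nucleus, made in the cytosol and imported. A small subunit reads the messenger RNA and a large subunit joins the amino acids, and many of the proteins of both have no counterpart in bacteria.

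A microRNA pairs with messenger RNAs through its seed, bases 2 to 8. The labels name miR-95 without an arm, so both mature RefSeq sequences (GRCh38.p14) are shown because they define what was overexpressed, with the seed in capitals.
hsa-miR-95-3p: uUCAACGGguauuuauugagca
hsa-miR-95-5p: uCAAUAAAugucuguugaauu
The seeds of the 2 arms differ, and no 3′ untranslated sequences were used here, so seed matches in the members were not searched. The gene of miR-95 itself is not among the named probe sets, and its overexpression could not be checked on these arrays.

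Values are log2 expression as deposited. A difference is the miR-95 value less the control value, in log2 units, once the median of all genes (7.46 on the control array and 7.495 on the other) has been subtracted from each array. This step takes 0.035 off every deposited difference. With 1 array per group no value has a replicate error and no difference has a test. Every statement describes these 2 arrays. As a guide to measurement disagreement only, the spread of a single probe set was put at 0.115 (67 genes at or above the median level with several probe sets). It is a robust SD of the gap in difference between the first 2 probe sets of a gene, divided by the square root of 2. The arrays correlated at 0.996 across 23641 probe sets. All 6 epithelial and PC3 markers listed (KRT8, KRT18, KRT19, EPCAM, CD44 and VIM) lay above the median level of genes. KLK3, the androgen-driven prostate antigen, lay below it at 6.53 and 6.66. Of 14 markers of other cell types 7 were named and 1 of these, the lysosomal CD68, lay above the median. The summed log2 value of these 7 was 45.2 on the control array and 43.9 on the miR-95 array. Without LUM, a dim matrix gene that read 7.33 and 6.04, the other 6 summed to 37.83 and 37.84. Their part in the results was not tested.

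The set as a whole differed little between the arrays, and a single small subunit gene, MRPS14, stood far from the rest. Only MRPS14 of the 88 members passed 1.5-fold, upwards, against a background of 0.426% of all genes 1.5-fold higher and 0.923% 1.5-fold lower. At the smaller limit of 1.2-fold, 2 members were higher and 1 was lower (3.41% together), while 16.5% of all genes passed it either way. The other 2, MTERF4 and MRPL23, were dim on both arrays. Differences of at most 0.1 either way were found in 58 members (65.9%) and in 44.6% of all genes. The robust SD of the difference was 0.0815 over the members and 0.163 over all genes. Among genes whose mean level reached the median, where 81 members lay, it was 0.0741 for members and 0.148 for all genes. This contrast between the members and all genes was not tested.

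**Figure D1:**
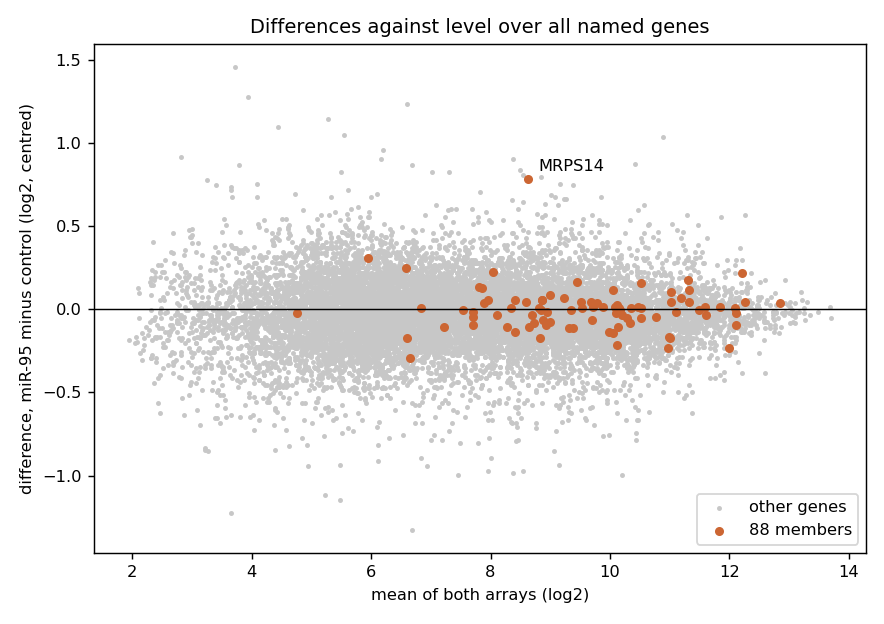
Difference between the arrays (miR-95 minus control, log2, centred) against the mean log2 value of both arrays for 13864 genes, with the 88 members in orange and other genes in grey. MRPS14 lies at 0.785, and the other members lie between -0.295 and 0.305.

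The median difference of the 88 members was 0, beside -0.025 over all genes. As many members were higher (44) as lower (44), against 56.9% of all genes lower. That split depended on the scaling: with the values as deposited 55 members were higher and 29 lower, and 46.7% of all genes were lower. Of the 25 proteins with small subunit names 11 were higher and 14 lower, with a median of -0.005. Of the large subunit proteins 29 were higher and 19 lower, with a median of 0.005. As deposited, 15 small subunit genes were higher and 10 lower, and 32 large subunit genes were higher and 14 lower.

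MRPS14 encodes uS14m, a small subunit protein of a family found in all ribosomes, which sits in the head of the subunit. It read 8.21 on the control array and 9.03 on the miR-95 array. After centring it was 1.72-fold higher on the miR-95 array, a difference of 0.785. It ranked 21st from the highest of 13864 genes. The next small subunit protein, MRPS33, lay 0.56 below it. The difference of MRPS14 is 6.81 times the spread of a single probe set, as estimated from genes with several. That spread was taken within the same 2 arrays, so it holds no variation between repeated arrays or cultures. MRPS14 itself was read by 1 probe set and has no second reading. Among 1057 genes within 0.25 of its mean level, 5 (with MRPS14 among them) had a difference at least as large and 7 were at least 1.5-fold higher. The robust SD of the difference over those 1057 genes was 0.163. MRPS14 had been singled out from earlier results of these arrays, so its size is a description.

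**Figure D2:**
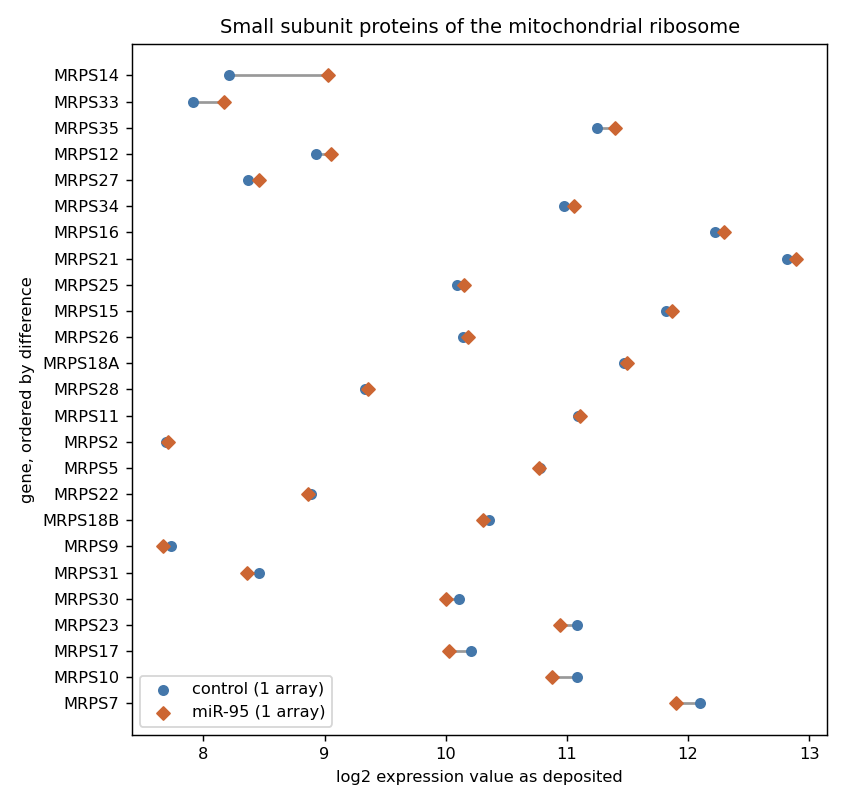
Deposited log2 values of 25 small subunit genes on the control array (blue circles) and the miR-95 array (orange diamonds), ordered by their difference. MRPS14 moves from 8.21 to 9.03, and no other gene of the group moves by as much as 0.3.

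The other 24 small subunit genes lay between -0.235 and 0.225 (median -0.01), and none passed 1.2-fold. MRPS33, a protein found only in mitochondrial ribosomes, read 7.91 on the control and 8.17 on the miR-95 array, 1.17-fold higher after centring. MRPS35, also particular to mitochondria, read 11.25 and 11.40, a difference of 0.115. MRPS12, the counterpart of the bacterial decoding-centre protein S12, read 8.93 and 9.05 and differed by 0.085. These 3 and MRPS14 were the small subunit genes that stood highest.

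At the other end, MRPS7 read 12.10 on the control array and 11.90 on the miR-95 array, and MRPS10 read 11.08 and 10.88. Both were 1.18-fold lower after centring, and both encode conserved proteins of the subunit head. MRPS17, a conserved protein that binds ribosomal RNA, read 10.21 and 10.03 and was 1.16-fold lower. MRPS23, particular to mitochondria, differed by -0.175. The remaining small subunit genes stayed within 0.15 of 0.

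MRPS14 was set beside the proteins placed near it in the subunit. It was the highest of all members, so any group of other members would lie below it. Of 8 other head proteins named here, a grouping made after the values were seen, 3 were higher and 5 lower, from -0.235 (MRPS7 and MRPS10) to 0.225 (MRPS33). Their median was -0.07. Besides those already given, MRPS9 differed by -0.095, MRPS31 by -0.135, DAP3, the GTP-binding protein of the head, by 0.075, and PTCD3, an RNA-binding repeat protein, by -0.045.

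RefSeq synonyms name some ribosomal proteins as shared with other ribosomes and some as mitochondria-only. The groups below follow the prefix of these names alone, and the descent of each protein was not examined. With MRPS18A and MRPS30 counted in the large subunit, where structures place them, 10 small subunit genes belonged to families found in all domains, with a median of -0.03, and 10 were mitochondria-only, with a median of 0.015. In the large subunit 16 genes of universal families had a median of 0.005, 13 shared only with bacteria had 0.015, and 21 mitochondria-only had 0.005. The 2 small subunit genes whose synonyms listed them as shared only with bacteria, MRPS16 and MRPS21, had a median of 0.04. MRPS28, at -0.005, had no such name among its synonyms and was left out of this division.

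**Figure D3:**
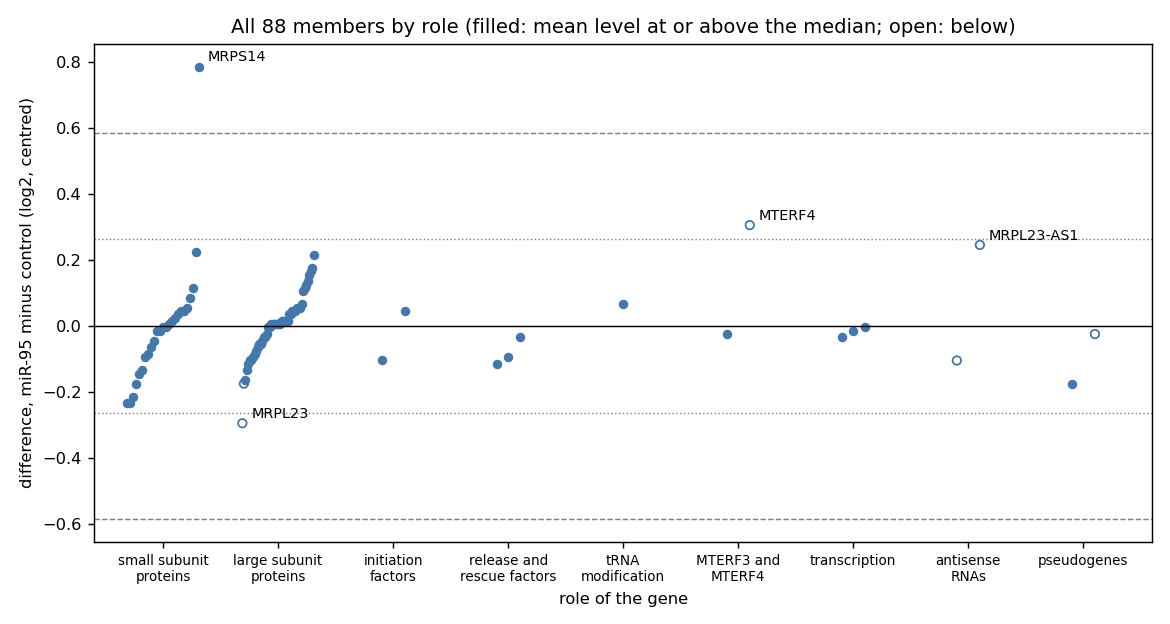
Difference (miR-95 minus control, log2, centred) of each of the 88 members, grouped by role. Filled points have a mean level at or above the median of all genes and open points lie below it, and dashed and dotted lines mark 1.5-fold and 1.2-fold. MRPS14 is the only point beyond 1.5-fold.

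The 48 large subunit genes lay between -0.295 and 0.215, with 33 within 0.1 of 0. MRPL34, a very small protein shared with bacteria, read 12.09 on the control and 12.34 on the miR-95 array and was 1.16-fold higher. MRPL49 read 11.20 and 11.41, a difference of 0.175. MRPL10, which anchors the flexible stalk that recruits translation factors, read 9.35 and 9.55, a difference of 0.165. MRPL40 followed at 0.155. These were the highest of the group and all lay under 1.2-fold.

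The lowest large subunit gene, MRPL23, a protein at the peptide exit tunnel, was dim, at 6.78 on the control and 6.52 on the miR-95 array. It was 1.23-fold lower and the only large subunit gene past 1.2-fold, where 9.88% of all genes were 1.2-fold lower. MRPL3, a conserved protein near the peptidyl transferase centre, read 11.05 and 10.92 and differed by -0.165. MRPL44, related to the nuclease RNase III, read 10.04 and 9.94 and differed by -0.135. MRPL57 differed by -0.115. MRPL58, a ribosome-bound hydrolase that releases stalled chains, read 12.08 and 12.12, and MRPL45, which lies near the tunnel exit and tethers the ribosome to the inner membrane, read 12.14 and 12.08.

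The 5 translation factor genes named here lay between -0.115 and 0.045, and 0 of 5 passed 1.2-fold, which 16.5% of all genes did, so that count by itself does not set them apart. MTIF2, which places the initiator tRNA, read 9.65 on the control and 9.73 on the miR-95 array and differed by 0.045. MTIF3, the other initiation factor, read 8.31 and 8.24 and differed by -0.105. MTRF1L, the main stop codon reader, read 9.42 and 9.34 and differed by -0.115. The related MTRF1 read 8.96 and 8.90 and differed by -0.095, and MTRFR, a rescue factor for stalled ribosomes, read 8.69 on both arrays. All 3 release and rescue factors were lower after centring by little, where 56.9% of all genes were lower. MTRFR reached 0 with the values as deposited. The elongation factors TUFM, TSFM and GFM1 and the 17 mitochondrial aminoacyl-tRNA synthetases that the rule would take were not analysed here, since no probe set used here carried their names. The same holds for TFAM, TFB1M, TFB2M and GFM2.

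The 3 genes of mitochondrial transcription named here lay close to 0. POLRMT, the RNA polymerase of mitochondrial DNA, read 8.94 on the control and 8.96 on the miR-95 array. MTERF1, which binds mitochondrial DNA and ends transcripts, read 7.53 and 7.56, and MTERF2 read 8.11 on both. Their differences after centring ran from -0.035 to -0.005, and each of the 3 was 0 or above as deposited. MTERF3, which acts in assembly of the large subunit, read 10.10 and 10.11. MTERF4, which guides an RNA methyltransferase to the large subunit, was 1.24-fold higher but dim, at 5.77 and 6.11. MTO1, which modifies a wobble base of mitochondrial tRNAs, read 9.18 and 9.28 and differed by 0.065.

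The antisense RNA MRPL23-AS1 read 6.45 on the control and 6.73 on the miR-95 array, a difference of 0.245, while MRPL23 differed by -0.295. Both are dim. MRPL20-AS1 differed by -0.105 and MRPL20 by 0.005. The pseudogene MRPL45P2 differed by -0.175 and its parent MRPL45 by -0.095, and signal shared between such near copies cannot be told apart. MRPL42P5 read 4.76 and 4.77.

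Of 89 further genes of mitochondrial gene expression listed beside the members, 63 were named on the arrays. None was 1.5-fold different (background 0.426% higher and 0.923% lower). At 1.2-fold, 2 were lower and 0 were higher (background 9.88% and 6.57%). The direction depended on the scaling: 2 were higher and 1 lower after loess or quantile normalization, and 1 was higher and 1 lower as deposited. DNA2, a nuclease and helicase of mitochondrial and nuclear DNA replication, read 10.10 on the control and 9.78 on the miR-95 array, 1.28-fold lower. GARS1, the glycyl-tRNA synthetase used in cytosol and mitochondria, read 11.09 and 10.85, 1.21-fold lower. The 20 ribosome assembly genes had 10 higher and 10 lower, a median of 0 and a range from -0.215 (the rRNA methyltransferase MRM1) to 0.225 (the RNA helicase DHX30). The 18 tRNA processing genes had a median of -0.05, with PUS1, a pseudouridine synthase, highest at 0.255. The 12 genes of RNA stability had a median of -0.045, among them LRPPRC, which protects mitochondrial messenger RNAs, at -0.075. Of the regulators of nuclear genes for mitochondria, NRF1 differed by -0.055, ESRRA and YY1 by -0.145 each and MYC by 0.135.

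Cytosolic ribosomal proteins and subunits of oxidative phosphorylation were set beside the members. The 50 cytosolic ribosomal proteins had a median of -0.015 and a robust SD of 0.0815. The 25 respiratory subunits, with no NDUF or SDH gene among them, had a median of -0.005 and a robust SD of 0.119. Among genes at or above the median level the robust SD was 0.089 for 43 cytosolic proteins and 0.0741 for 19 respiratory subunits. For members at that level it was 0.0741. None of the cytosolic or respiratory genes passed 1.5-fold, where 0.426% of all genes were higher and 0.923% lower. At 1.2-fold 1 cytosolic protein was lower, RPL10L at -0.385, and 2 respiratory subunits were higher, COX6B1 at 0.315 and COX6A2 at 0.265. Over all genes 6.57% were 1.2-fold higher and 9.88% 1.2-fold lower. Differences of at most 0.1 either way were found in 76% of the cytosolic proteins and 60% of the respiratory subunits. The difference between these groups and the members was not tested.

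**Figure D4:**
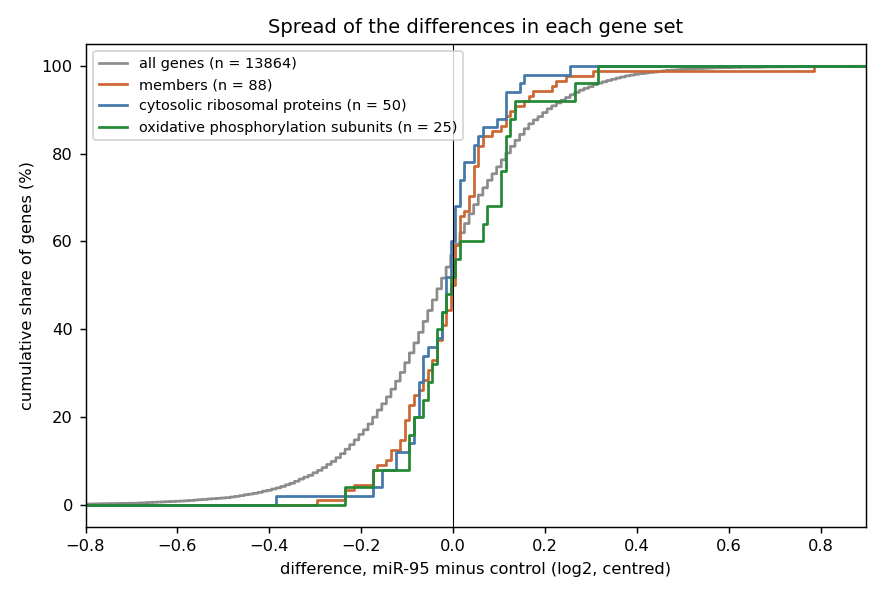
Cumulative share of genes by their difference (miR-95 minus control, log2, centred) for all genes, the members, the cytosolic ribosomal proteins and the subunits of oxidative phosphorylation. The 3 gene groups climb more steeply than all genes, and the step of the members at 0.785 is MRPS14.

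The genes beside MRPS14 in RefSeq order were set against it. On one side CACYBP, GPR52 and RABGAP1L differed by -0.055, -0.075 and -0.015, all below the median level. On the other side TNN, also dim, differed by 0.095, and KIAA0040 read 8.71 on the control and 9.03 on the miR-95 array, 1.22-fold higher, where 6.57% of all genes were 1.2-fold higher. TNR, the next gene, was not named on the arrays. Of the 6 genes measured here, only MRPS14 passed 1.5-fold, where 0.426% of all genes were 1.5-fold higher and 0.923% 1.5-fold lower. MRPS14 had been singled out for its difference, so this count does not set its neighbourhood apart.

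Promoter windows, which the choice by name did not use, were searched for short motifs. RefSeq promoter windows (GRCh38.p14, 250 bases before to 50 after the start, the first listed start of each gene) matched 74 of the 84 protein-coding members. Both strands were searched. Only the member windows were limited to protein-coding genes. The windows of measured genes and all windows were taken whatever the type of gene, so the shares are not matched in this. The sequence ANATGGCGG, named here for the factor YY1, occurred in 18 member windows (24.3%), in 4.26% of the windows of all measured genes and in 2.83% of all 27305 windows. CCGGAAG, a core of ETS factor sites such as those of GABP, occurred in 33 (44.6%), against 15.2% and 10.7%. GCGCANGCG, for the factor NRF1, occurred in 15 (20.3%), against 11.6% and 8.05%. In 4 member windows the YY1 and ETS letters were both present, and matches to different motifs overlapped in 0 of the 74. None of the YY1, ETS and NRF1 letters was found in 21 member windows. The letters CCAAT were found in 31.1% of member windows and 36.1% of those of measured genes, and TATAAA in 2.70% and 8.32%. The median GC content was 60.7% in member windows and 63.3% in those of measured genes. These shares are descriptions, without a test.

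The YY1-like match often lay just after the start. It began 8 to 37 bases from it, counting the first transcribed base as 1, in 14 of the 18 genes, and the letters ATGG within it can be a start codon and its next base. Matches in genes with MRPS names are shown with 10 bases on each side, since they set MRPS14 beside other ribosomal proteins (MRPS18A and MRPS30 being large subunit proteins by structure). Capitals mark the match.
MRPS14: gtagcggacaACATGGCGGccttcatgct
MRPS9: cccacagctaACATGGCGGcgccctgtgt
MRPS10: gggaccggcaAGATGGCGGcgcggacagc
MRPS18A: aggtttttgaAGATGGCGGccctcaaggc
MRPS18B: gcgtacgtcaAGATGGCGGcgtctgtatt
MRPS30: tcgcgggcaaAGATGGCGGcggccaggtg
In MRPS14 the match covers bases 16 to 24 (chr1:175023392-175023420, minus strand, for the stretch shown). The 5 other genes differed by -0.095, -0.235, -0.005, -0.085 and -0.145 in the order shown. MRPS14 was the highest of all members, so any other members would lie below it, with or without the match. Over all 18 genes with the match the median difference was 0, as it was over the 56 without. For the ETS letters the medians were 0.005 with and -0.015 without. They were -0.015 with and 0.005 without for NRF1, and -0.035 with and 0.005 without for CCAAT. For TATAAA they were -0.08 with, in 2 genes, and 0 without.

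The 250 bases before the MRPS14 start (chr1:175023426-175023675, minus strand) held none of the 5 motifs searched, so no letter is in capitals. They are shown because MRPS14 is the gene on which the comparison turns.
MRPS14 upstream: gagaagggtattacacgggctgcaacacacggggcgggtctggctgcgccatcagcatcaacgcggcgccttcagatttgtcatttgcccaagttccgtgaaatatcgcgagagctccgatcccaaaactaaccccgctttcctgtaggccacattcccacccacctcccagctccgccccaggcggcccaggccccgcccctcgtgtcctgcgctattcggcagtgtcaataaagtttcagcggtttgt

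**Figure D5:**
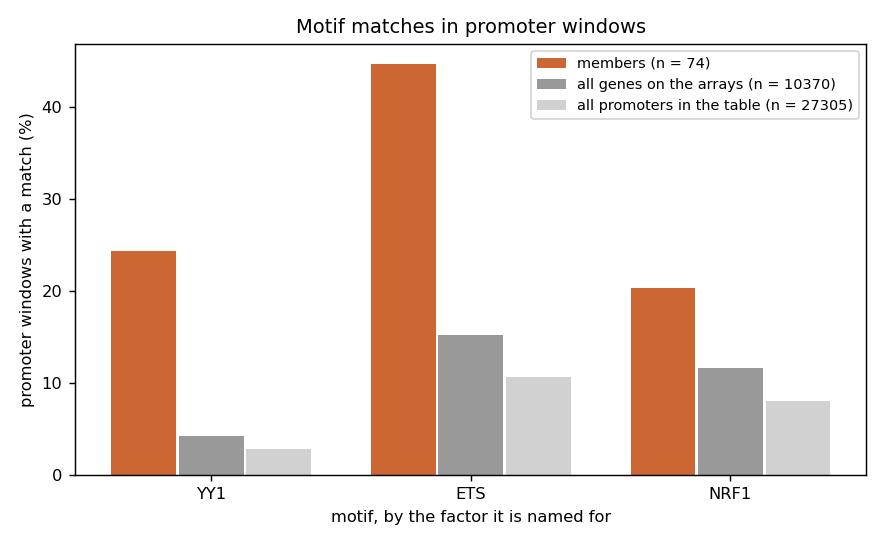
Share of promoter windows with at least 1 match to the YY1, ETS and NRF1 motifs, for 74 members, 10370 measured genes and all 27305 windows in the RefSeq table. Only the members were limited to protein-coding genes, and the NRF1 letters were shortened by 1 base after a first search. The member bar is the tallest for each motif, at 24.3%, 44.6% and 20.3%.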

How the data were processed

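The deposited table holds log2 values for 23641 probe sets on 2 arrays, the scale being read from the values. The authors used Affymetrix Expression Console 1.2, per the submitters' processing notes; no source used here states the summarisation, background correction or scaling. Scaling of arrays to a common level would hide a shift of all transcripts. Platform annotation named 14088 probe sets, which gave 13864 genes through RefSeq (GRCh38.p14). Probe sets of the same gene were averaged, and each array was centred on its median over genes. Members were taken by symbol rule and matched to roles by hand. Members, gene lists and tests were chosen with earlier results of these data known. Genes named were MRPS14, members past 1.2-fold, up to 3 members each way per role at or above the median level, and 3 neighbours of MRPS14 on each side. MRPS9, MRPS12, MRPS23, MRPS31, MRPL40, MRPL45, MRPL58, DAP3, PTCD3, MRPS16, MRPS21, LUM, RPL10L, COX6B1, COX6A2, the antisense RNAs, MRPL20, MRPL42P5 and the further pathway genes under 1.2-fold were named after their values were seen. The same holds for MRPS28. No test was possible with 1 array per group, whose number limits the precision. Steps were tested on simulated data. Python 3.11.15, pandas 2.3.3 and statsmodels 0.14.6 were used. The alternatives were other centring, filters, an offset, other choices of probe set and other member sets. The NRF1 letters searched were shortened by 1 base after a first search.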

Additional observations from a re-analysis of the deposited data

How the results depend on the processing

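The difference of MRPS14 stayed between 0.728 (offset of 32 on the linear scale) and 0.82 (values as deposited) under each alternative that keeps it. At the 75th percentile of level MRPS14 itself was left out, and 0 of 52 members passed 1.5-fold and 0 passed 1.2-fold. Without MRPS14, 0 of 87 members passed 1.5-fold. The count past 1.2-fold was 1 in place of 3 with either filter at the median level and with the offset, since MTERF4 and MRPL23 are dim. As deposited, 3 members were 1.2-fold higher and 0 lower. The member median ran from -0.005 to 0.035, the small subunit median from -0.01 to 0.0312 and the large subunit median from 0.005 to 0.0454. Of 24 other genes checked, 19 kept their sign under each alternative, and the 5 that did not had differences of at most 0.035. Without the antisense RNAs and pseudogenes, a choice made after seeing the data, the counts did not move. The median of the synthetases was not run, since none was named here. No paired analysis was possible because each group holds 1 array, and no array could be left out. Low signal limits the 7 members below the median level: MTERF4, MRPL22, MRPL23, MRPL54, MRPL42P5 and both antisense RNAs.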
